A study of Bos taurus with 8 samples.

Results

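Glycolysis and lactate handling were examined here through 28 genes: the enzymes that split glucose to pyruvate, the bifunctional enzymes that set the level of fructose 2,6-bisphosphate, the lactate dehydrogenase subunits and the lactate carriers. Members were the rows of the deposited gene table whose symbol was on this list, and all 28 were found among its 28709 genes. A filter on low counts kept 13557 genes for testing, 25 of the members among them. The other 3, PFKFB1, PGAM2 and HKDC1, were too low to test.

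The cells were BUTE, an immortalized uterine epithelial line derived from a single Holstein cow and labelled as wild type, so every library shares the same donor and line. All cultures first spent 24 h without serum, steroids and phenol red but with IGF1 (insulin-like growth factor 1), a step the labels describe as a stimulus of glycogen synthesis. They were then kept for 24 h with 50 ng/ml IGF1 and either the vehicle DMSO (4 libraries) or 10 µM progesterone (4 libraries). The maintenance medium before that held 5.55 mM glucose, estradiol, epidermal growth factor and insulin. Whether each library stands for its own culture is not stated in the labels, so p-values measure only the spread between these libraries, which may be technical.

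Glycolysis converts glucose to pyruvate with a net gain of ATP. Hexokinase traps glucose in the cell, phosphofructokinase commits it to the pathway, and pyruvate kinase makes pyruvate, which lactate dehydrogenase can reduce to lactate for export by monocarboxylate carriers. Vertebrates carry several paralogues of most of these enzymes, and tissues differ in which they use. In the uterus, epithelial glucose handling and stored glycogen are regarded as a source of energy for the early embryo, and many glycolytic genes are textbook targets of the hypoxia-inducible factors.

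Libraries held between 23810861 and 32509786 estimated counts. Values below are CPM, each library's counts scaled to a common total with TMM factors (trimmed mean of M values). Libraries are named by the numbers in the column names: R1, R3, R7 and R9 for DMSO, the vehicle, and R1, R2, R3 and R6 for progesterone. DMSO R7 and R9 stood apart from the rest: across genes their log2 CPM correlated at 0.992 with each other and at 0.949 to 0.962 with the other 6 libraries, which correlated among themselves at 0.983 to 0.992. Results are therefore also given without these 2 libraries. Of the 7 epithelial markers, KRT8 (1348 to 2789 CPM), KRT19 (255 to 706 CPM) and CDH1 (10.5 to 22.7 CPM) were present. The other 4 were low: KRT18, the usual partner of KRT8, was at 0.948 to 6.92 CPM, MUC1 at 0.878 to 3.33 CPM, EPCAM at 0.275 to 2.53 CPM, and CLDN4 at no more than 3 counts. Of the 3 smooth muscle markers, ACTA2 was at 542 to 771 CPM, DES at 3.301 to 9.985 CPM, and MYH11 at no more than 5 counts. All 7 stromal markers were detected, with summed levels of 13262 to 20545 CPM under vehicle and 12062 to 13255 CPM under progesterone. The vehicle sum was highest in DMSO R7 and R9. COL1A1 was at 6553.5 and 5295 CPM there, against 2046 and 1928 CPM in DMSO R1 and R3 and 1516 to 1851 CPM under progesterone. DCN was lower in DMSO R7 and R9, at 268 and 281 CPM against 962.5 and 770 CPM in DMSO R1 and R3. The 7 epithelial markers summed to 2818 to 3070 CPM and 1728 to 2641 CPM. None of the markers tested passed between the groups, and their part in the results was not tested.

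With progesterone 1 of 25 tested members fell, the enolase gene ENO3, and the other 24 did not pass, so no member was called higher. Passing means an adjusted p under 0.05 in edgeR, from the quasi-likelihood test with adjustment over all genes tested. Over all genes 2.65% were called, 1.69% higher and 0.959% lower. Before adjustment, 1 member (PFKFB4) had a p under 0.05 in the higher direction and 3 (ENO3, SLC16A1 and PGAM1) in the lower. Over all genes this held for 26.8%, 12.3% higher and 14.5% lower. The groups did not overlap for 2 members, PFKFB4 (higher) and ENO3 (lower), against 16.2% of all genes (7.95% higher and 8.22% lower). DESeq2 called 2 members lower (13.5% of all genes in either direction) and limma voom 1 (2.04%), and neither called a member higher. The median log2 fold change of the members was -0.07, with 8 above and 17 below 0, beside a median of -0.01 over all genes tested. Without DMSO R7 and R9 no member passed in edgeR, where 1.18% of all genes were called (0.995% higher and 0.182% lower). At an unadjusted p under 0.05, 1 member was higher (PFKFB2) and 3 were lower (ENO3, PGAM1 and SLC16A1), against 15.9% of all genes (9.77% higher and 6.10% lower). The groups then did not overlap for 3 members, PFKFB4 (higher) and ENO3 and PKLR (lower), against 26.7% of all genes (14.0% higher and 12.7% lower), and the members' median was -0.11.

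The intervals limit how large a change these libraries could hide. The 95% interval of the log2 fold change lay within a 2-fold change in either direction for all 25 tested members, against 80.3% of all genes tested. It lay within a 1.5-fold change for 15 members (60.0%, against 54.3% of all genes). Without DMSO R7 and R9 it lay within 1.5-fold for 13 of 25 members, a smaller share than over all genes (8844 of 13764). There it passed 2-fold for HK2 (-0.71 to 1.16 on the log2 scale) and HK3 (-1.29 to 0.86).

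**Figure D1:**
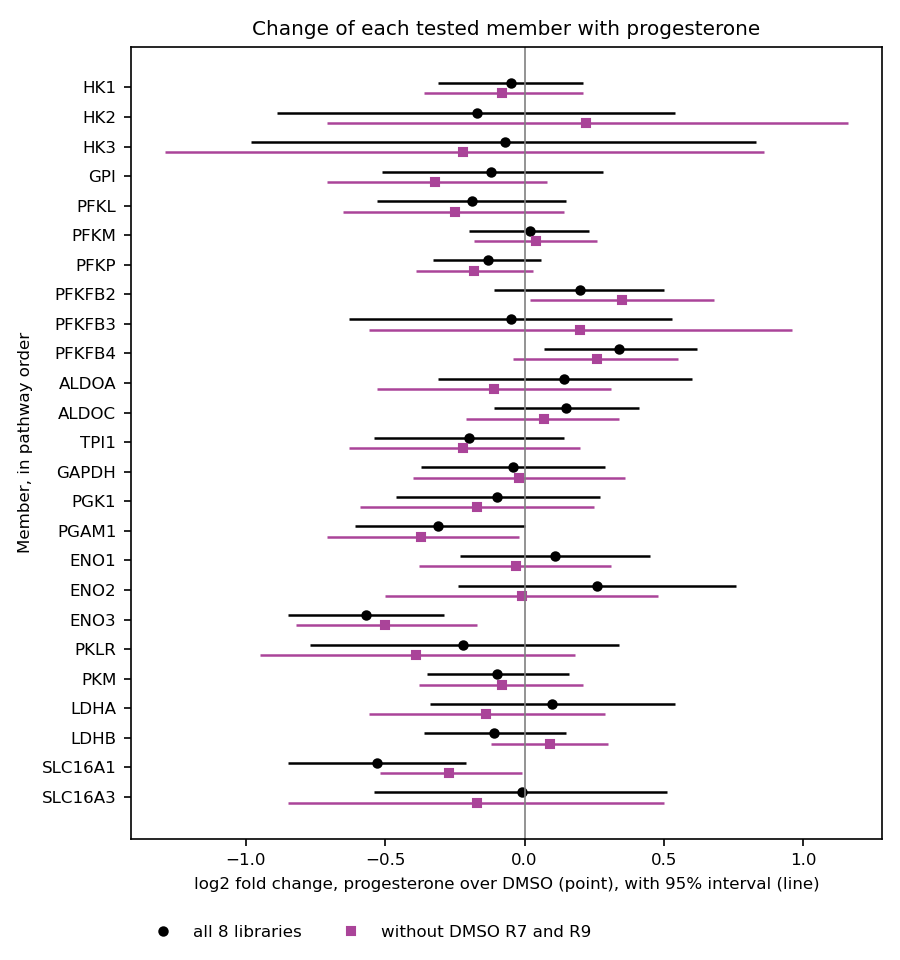
Log2 fold change of each tested member, progesterone over DMSO, with its 95% interval, from all 8 libraries (black circles) and without DMSO R7 and R9 (purple squares). With all libraries the interval excludes 0 for ENO3, SLC16A1, PFKFB4 and PGAM1, and ENO3 alone passed after adjustment.

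At the entry of the pathway no hexokinase passed. HK1 (Entrez Gene 280817, chromosome 28), the broadly expressed isoform bound to mitochondria, was at 251, 291, 237 and 277 CPM in DMSO R1, R3, R7 and R9 and at 253, 233, 310 and 224 CPM in progesterone R1, R2, R3 and R6 (log2 fold change -0.05 ± 0.12 SE, edgeR adjusted p = 0.802). HK2 (788926, chromosome 11), the inducible isoform, varied more, at 102, 163, 209 and 218 CPM under vehicle and 129, 122, 250 and 111 CPM under progesterone, in the same order of libraries as in all lists below. Its highest value was in progesterone R3 and its lowest in DMSO R1, and the groups overlapped. The HK2 log2 fold change was -0.17, with a 95% interval from -0.89 to 0.54, and it was 0.22 without DMSO R7 and R9. Over 20 alternatives the HK2 log2 fold change ran from -0.54 to 0.49 and its adjusted p from 5.31e-09 to 0.961. It passed in 1 of them, with the column number as a block, a fit that left 1 residual degree of freedom. HK3, the isoform of white blood cells, stayed between 6 and 19 counts per library (log2 fold change -0.07, 95% interval -0.98 to 0.83). HKDC1, a hexokinase-like gene, had 3, 13, 0 and 3 counts under vehicle and 9, 4, 6 and 5 under progesterone, so small changes in either gene were not detectable at this depth. GPI, the isomerase that makes fructose 6-phosphate, was at 537, 715, 430.1 and 479 CPM under vehicle and 457, 448, 655 and 435 CPM under progesterone. Its highest libraries were those numbered R3, and the means were 540 ± 124 and 499 ± 105 CPM (SD, n = 4 each).

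The phosphofructokinase subunits did not pass either. PFKL, the liver-type subunit, was at 585, 731, 550.0 and 635 CPM under vehicle and 490, 482, 733 and 486 CPM under progesterone (log2 fold change -0.19 ± 0.15 SE). In 3 of the 4 progesterone libraries PFKL lay below every DMSO library, and progesterone R3 lay above all of them. PFKP, the platelet-type subunit, was at 201, 228, 188 and 204 CPM under vehicle and 181, 180, 205 and 183 CPM under progesterone. The other 3 progesterone libraries again lay below every vehicle library and R3 did not (log2 fold change -0.13 ± 0.09 SE). PFKM, the muscle-type subunit, was at 30.3, 34.3, 29.4 and 36.1 CPM under vehicle and 35.0, 30.6, 32.9 and 33.1 CPM under progesterone. Its SD of log2 CPM in the progesterone group (0.08) was the smallest of the tested members on that scale, and its log2 fold change was 0.02 (95% interval -0.20 to 0.23).

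The PFKFB enzymes make and degrade fructose 2,6-bisphosphate, a strong activator of phosphofructokinase. PFKFB4 (534928, chromosome 22) was at 26.6, 26.2, 21.7 and 24.1 CPM under vehicle and 27.4, 29.9, 38.4 and 29.4 CPM under progesterone. Every progesterone library lay above every DMSO library, by a narrow margin between progesterone R1 and DMSO R1. The mean was 24.6 ± 2.26 CPM under vehicle and 31.3 ± 4.88 CPM under progesterone, a log2 fold change of 0.34 ± 0.12 SE that did not pass (edgeR adjusted p = 0.121, range over 20 alternatives 0.0205 to 0.383). Without DMSO R7 and R9 the PFKFB4 log2 fold change was 0.26. PFKFB3 (407183, chromosome 13), the isoform whose kinase activity most outweighs its phosphatase activity, was at 50.4, 71.2, 85.5 and 80.3 CPM under vehicle and 60.2, 55.8, 109.8 and 51.4 CPM under progesterone. As for HK2, progesterone R3 was the highest library and the groups overlapped (log2 fold change -0.05, and 0.20 without DMSO R7 and R9). PFKFB3 also passed in 1 of 20 alternatives, the same block, with log2 fold changes from -0.37 to 0.45 and adjusted p from 2.32e-06 to 0.994. PFKFB2, the heart-type isoform, was at 15.5, 18.3, 20.4 and 20.3 CPM under vehicle and 23.5, 21.7, 23.4 and 16.8 CPM under progesterone. Progesterone R6 lay inside the vehicle range and the other 3 lay above it (log2 fold change 0.20 ± 0.14 SE), and its edgeR adjusted p was 0.376. Leaving out DMSO R7 and R9 gave PFKFB2 a log2 fold change of 0.35. Over the 20 alternatives the adjusted p of PFKFB2 ran from 0.000214, with the same block, to 0.603. PFKFB1 had a count of 0 in every library.

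The middle of the pathway, from aldolase to phosphoglycerate kinase, showed no call. ALDOA, the main aldolase of most tissues, was at 1008 (R1), 1311 (R3), 764 (R7) and 775 (R9) CPM under vehicle and 960 (R1), 948 (R2), 1448 (R3) and 908 (R6) CPM under progesterone. The vehicle libraries R7 and R9 were the lowest of the 8, and the log2 fold change of ALDOA was 0.14 (95% interval -0.31 to 0.60), or -0.11 without them. ALDOC, the brain-type aldolase, was at 37.2, 39.7, 32.1 and 34.6 CPM under vehicle and 39.2, 36.6, 48.4 and 35.4 CPM under progesterone (log2 fold change 0.15 ± 0.12 SE). TPI1, which interconverts the triose phosphates, was at 919, 1181, 990.2 and 1022 CPM under vehicle and 735, 840.2, 1202 and 806 CPM under progesterone. As for the phosphofructokinases PFKL and PFKP, 3 progesterone libraries lay below every vehicle library and R3 did not (TPI1 log2 fold change -0.20 ± 0.15 SE). GAPDH (281181, chromosome 5), which also serves widely as a reference gene in expression assays, was at 3699, 4666, 3826 and 4610.1 CPM under vehicle and 3450.4, 3770.3, 5312 and 3814 CPM under progesterone. Its group means were within 0.04 of each other on the log2 scale (95% interval -0.37 to 0.29), while the highest progesterone library was 1.54-fold above the lowest. Listed copies of GAPDH held at most 17 counts (LOC616200) and 2 counts (LOC617654), few beside the counts of GAPDH itself. PGK1, the first ATP-making enzyme, was at 672, 927, 650 and 768 CPM under vehicle and 544, 694, 907 and 672 CPM under progesterone. The groups overlapped, and the log2 fold change of PGK1 was -0.10 ± 0.16 SE.

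In the lower part of the pathway, ENO3 (540303, chromosome 19), the enolase typical of muscle, was the member that fell. It was at 14.3, 17.2, 16.8 and 17.6 CPM under vehicle and at 10.1, 13, 10.9 and 10.3 CPM under progesterone, with no overlap between the groups. The mean went from 16.5 ± 1.46 to 11.1 ± 1.33 CPM, 1.49-fold lower (log2 fold change -0.57 ± 0.13 SE, edgeR adjusted p = 0.0470). Bulk RNA cannot tell apart fewer cells of a kind and less RNA per cell. The call was close to the threshold: without DMSO R7 and R9 the difference was -0.50 with an edgeR adjusted p of 0.138, the highest of 20 alternatives. The lowest, 0.000178, was with the column number as a block. With 1 library left out it was lost in 7 of 8 cases, with log2 fold changes between -0.64 and -0.53 and adjusted p up to 0.128. Those 7 cases covered each library except DMSO R1.

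The other enolases did not pass. ENO1, the enolase of most cells, was at 1525, 1869, 1293 and 1400.1 CPM under vehicle and 1560 (R1), 1634 (R2), 2040 (R3) and 1338 (R6) CPM under progesterone (log2 fold change 0.11 ± 0.15 SE). ENO2, the neuronal enolase, was at 23.9, 36.4, 19.1 and 19.8 CPM under vehicle and at 30.8, 29.2, 37.2 and 21.5 CPM under progesterone. DMSO R7 and R9 were the lowest vehicle libraries for both genes, and the log2 fold change of ENO2 went from 0.26 to -0.01 without them.

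PGAM1 (404148, chromosome 26), the mutase upstream of enolase, was at 511, 670.2, 515 and 551 CPM under vehicle and 373, 432, 555 and 459 CPM under progesterone. Of the progesterone libraries, 3 lay below every DMSO library and R3 did not. The log2 fold change of PGAM1 was -0.31 ± 0.14 SE (edgeR adjusted p = 0.183, range over 20 alternatives 3.69e-05 to 0.355) and -0.37 without DMSO R7 and R9. The lowest of that range was with the column number as a block. PGAM2, the muscle mutase, had a count of 0 in every library. PKM, the pyruvate kinase of most proliferating cells, was at 5364, 5906, 5614 and 5634 CPM under vehicle and 5007, 4993, 6424 and 4651 CPM under progesterone. Again R3 was above and the other 3 progesterone libraries were below all vehicle libraries, and the log2 fold change of PKM was -0.10 (95% interval -0.35 to 0.16). PKLR, the pyruvate kinase of liver and red cells, had 36 to 73 counts per library and did not pass (2.17 ± 0.478 and 1.86 ± 0.302 CPM, log2 fold change -0.22 ± 0.25 SE).

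**Figure D2:**
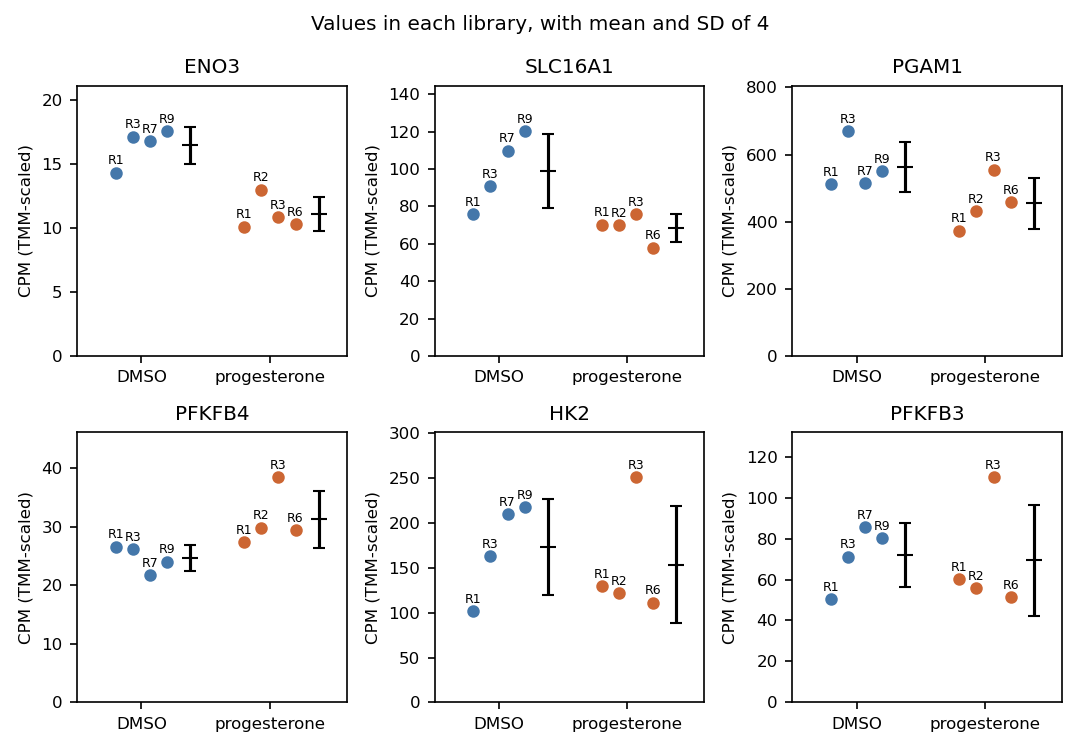
CPM in each library (points, labelled by column number) of 6 members, with the mean and SD of 4 libraries at the right of each group. ENO3 and PFKFB4 do not overlap between the groups, SLC16A1 and PGAM1 overlap through 1 progesterone library (R3), and HK2 and PFKFB3 are highest in progesterone R3.

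Among the lactate genes, SLC16A1 (505775, chromosome 3), which encodes the carrier MCT1, came closest to a call. It was at 75.7, 90.8, 109.7 and 120.3 CPM under vehicle and 70.2, 70.0, 75.9 and 57.9 CPM under progesterone. The groups touched, since progesterone R3 was just above DMSO R1, and DMSO R7 and R9 were the highest libraries. The log2 fold change was -0.53 ± 0.14 SE and missed the threshold (edgeR adjusted p = 0.0717), although DESeq2 called it (adjusted p = 0.0131). Without DMSO R7 and R9 the difference was -0.27 (edgeR adjusted p = 0.294), and these 2 adjusted p were the ends of its range over 20 alternatives. Leaving out DMSO R1, the lowest vehicle library, brought SLC16A1 past the threshold (log2 fold change -0.64, edgeR adjusted p = 0.0183). A second row named as a monocarboxylate transporter of the same type (LOC509911) held at most 16 counts.

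SLC16A3, which encodes MCT4, the carrier typical of lactate-exporting cells, was at 31.4, 46.4, 31.6 and 28.4 CPM under vehicle and 25.6, 30.5, 52.2 and 28.5 CPM under progesterone. The libraries numbered R3 were the highest in both groups, and the log2 fold change was -0.01 ± 0.24 SE. LDHA, the subunit that favours lactate formation, was at 1709, 2337, 1360.0 and 1393 CPM under vehicle and 1377, 1838, 2303 and 1777 CPM under progesterone (log2 fold change 0.10 ± 0.20 SE). LDHB, the subunit of the heart-type enzyme, was at 185, 214, 241 and 268 CPM under vehicle and 194, 210 (R2), 222 and 216 CPM under progesterone (log2 fold change -0.11 ± 0.11 SE). LDHA was lower and LDHB higher in DMSO R7 and R9 than in DMSO R1 and R3, and the sign of either change turned without them, to -0.14 and 0.09.

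Ratios between paralogues were compared across libraries as log2 ratios of CPM, in which gene length cancels, and are given without a test. ENO3 over ENO1 was -6.73, -6.77, -6.27 and -6.31 with DMSO and -7.27, -6.97, -7.55 and -7.02 with progesterone. This was the only one of the 10 ratios computed whose groups did not overlap, with a difference of -0.68, and -0.45 without DMSO R7 and R9. ENO3 alone did not overlap between the groups either, so this ratio repeats that result and is not separate support. LDHA over LDHB was 3.21 and 3.45 in DMSO R1 and R3 but 2.50 and 2.38 in R7 and R9, and 2.83 to 3.37 with progesterone. The difference in this ratio therefore turned from 0.21 to -0.23 without R7 and R9. HK2 over HK1 differed by -0.14, or 0.27 without these libraries, and SLC16A3 over SLC16A1 by 0.47, or 0.06 without them.

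**Figure D3:**
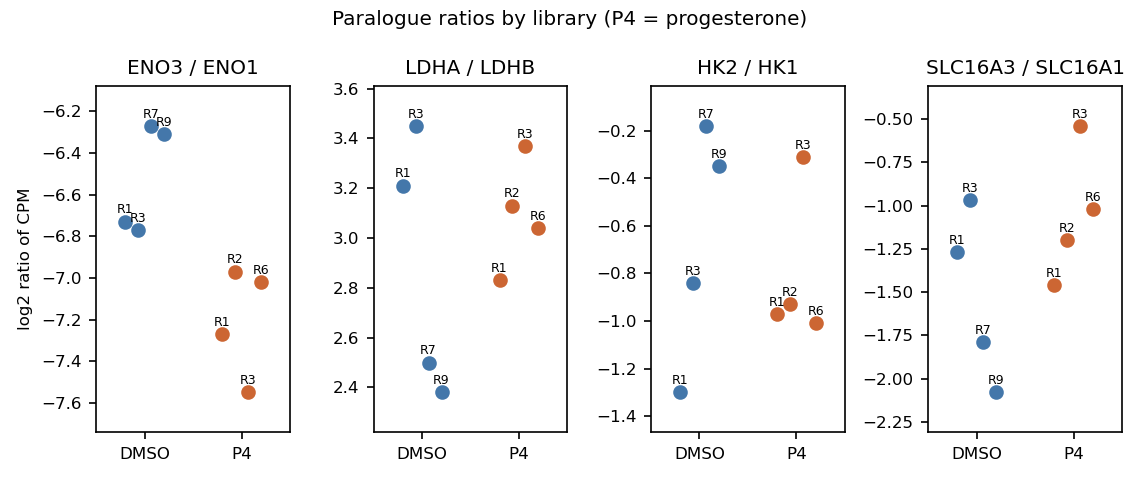
Log2 ratio of CPM of 4 paralogue pairs in each library, labelled by column number, on separate vertical scales. ENO3 over ENO1 does not overlap between the groups, while DMSO R7 and R9 lie apart from DMSO R1 and R3 for LDHA over LDHB (2.50 and 2.38 against 3.21 and 3.45).

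Libraries of the same group differed in a way that ran across the pathway. Progesterone R3 was the highest of the 4 progesterone libraries for 21 of 25 members (30.2% of all genes tested), from HK1 to the lactate carriers. The exceptions were PFKM, PFKFB2, ENO3 and PKLR. In the DMSO group, R3 was the highest library for 16 of 25 members (25.9% of all genes), and it lay above DMSO R1 for 23 (51.1%). The median over members of the log2 CPM minus the gene's mean of the 8 libraries was 0.34 in progesterone R3 and 0.22 in DMSO R3, and between -0.23 and 0.09 in the other 6, while over all genes it lay between -0.01 and 0.01. The members took 2.24% of all estimated counts in progesterone R3 and 2.20% in DMSO R3, against 1.61% to 1.81% in the others. PKM and GAPDH together made up 49.0% to 55.0% of the members' counts.

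The spread within the progesterone group describes the same values in another way, so it is not a separate result. The median SD of log2 CPM over the members was 0.252 with progesterone, against 0.152 over all genes tested. Without progesterone R3 it was 0.111 for the members and 0.127 for all genes, and without any of the other 3 it was between 0.249 and 0.308. In the DMSO group the medians were 0.229 for the members and 0.217 for all genes, and without DMSO R3 the members' median was 0.160. HK2 had the largest SD in either group, 0.50 and 0.54. Without both libraries numbered R3 no member changed the sign of its log2 fold change and none passed (ENO3 -0.54, edgeR adjusted p = 0.115). Among all genes 5 were called higher and 1 lower there.

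**Figure D4:**
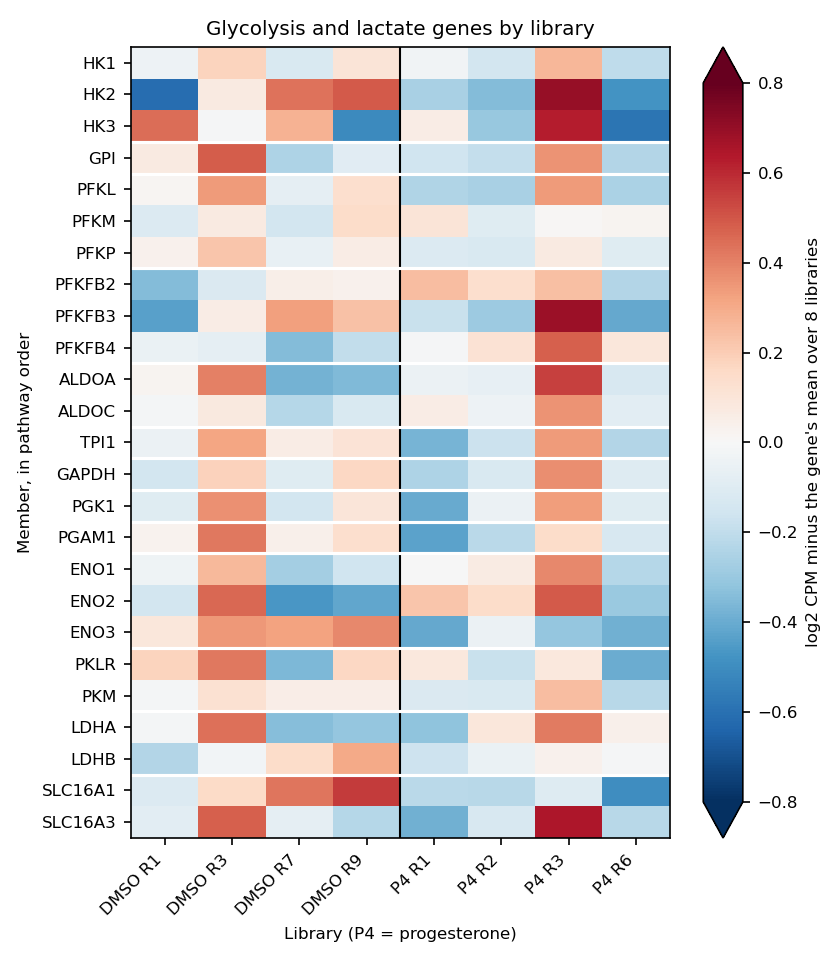
Log2 CPM of each tested member minus its mean over the 8 libraries, by library (columns, P4 = progesterone, a black line between the groups) and in pathway order (rows, white lines between steps). The columns of progesterone R3 and DMSO R3 are mostly red, with medians of 0.34 and 0.22. The row of ENO3 is above 0 in all DMSO and below 0 in all progesterone libraries. Its cells are pale in DMSO R1 (0.092) and progesterone R2 (-0.048).

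Genes outside the pathway that commonly respond to hypoxia, such as VEGFA, BNIP3 and NDRG1, differed between the same libraries. Progesterone R3 was the highest progesterone library for 19 of 19 tested genes of this list (30.2% of all genes tested). DMSO R3 lay above DMSO R1 for 19 of 19 (51.1% of all genes) but was the highest DMSO library for 13 of 19 (25.9%). BNIP3, a mitophagy receptor, was at 109, 195, 173 and 124 CPM under vehicle and 105, 121, 260.4 and 120.0 CPM under progesterone. Median deviations of the list were 0.55 in progesterone R3, 0.30 in DMSO R3 and -0.29 to 0.12 in the other libraries. Between the groups none of the 19 passed in edgeR (2.65% of all genes). At an unadjusted p under 0.05, 0 were higher and 3 lower (12.3% and 14.5% of all genes). DESeq2 called 2 (13.5% of all genes) and limma voom 0 (2.04%), and the median log2 fold change was 0.01. The part of this pattern in the members' values was not tested.

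**Figure D5:**
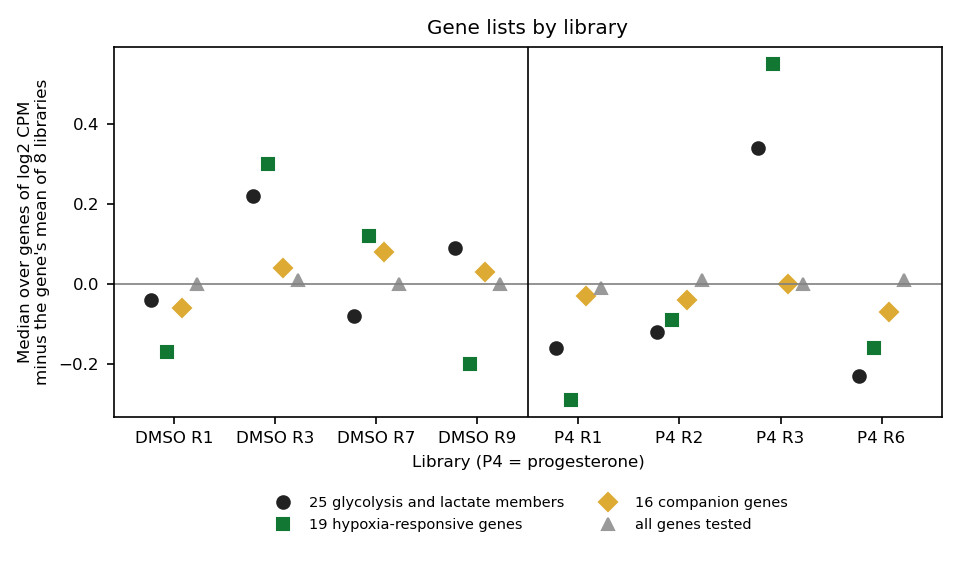
Median over the genes of a list of log2 CPM minus the gene's mean of 8 libraries, for each library (P4 = progesterone). The glycolysis and hypoxia-responsive lists are highest in progesterone R3 (0.34 and 0.55) and DMSO R3 (0.22 and 0.30), while the companion list stays between -0.07 and 0.08 and all genes tested near 0.

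Of 25 companion genes of glycolysis, gluconeogenesis and lactate handling, 16 were tested and none passed in edgeR (2.65% of all genes). The other 9 were at 0 (GCKR, G6PC2 and G6PC1, which the table lists as G6PC) or at no more than 11 counts in any library (FBP2, PCK1, LDHC, LDHD, SLC16A7 and SLC16A8). Before adjustment 1 was higher and 2 lower at a p under 0.05 (12.3% and 14.5% of all genes). DESeq2 called 1 (13.5% of all genes) and limma voom 0 (2.04%). The median log2 fold change was -0.10, with 6 above and 10 below 0. Without DMSO R7 and R9 the median was 0, with 8 above and 8 below 0. GPD2, the mitochondrial glycerol-3-phosphate dehydrogenase that passes electrons from cytosolic NADH to the respiratory chain, had the smallest p. It was at 46.1, 35.2, 33.7 and 35.9 CPM under vehicle and 60.6, 47.8, 43.6 and 53.6 CPM under progesterone. The groups overlapped through DMSO R1 alone (log2 fold change 0.45 ± 0.13 SE, edgeR adjusted p = 0.0821, DESeq2 adjusted p = 0.0278), and the change was 0.35 without DMSO R7 and R9. ADPGK, an ADP-dependent glucokinase, had a log2 fold change of -0.33 ± 0.11 SE and -0.13 without these libraries. MINPP1, a phosphatase of inositol phosphates and bisphosphoglycerate, had a log2 fold change of -0.20 with and without them. BSG, the chaperone of the lactate carriers MCT1 and MCT4, was at 1519 ± 177 CPM under vehicle and 1847 ± 274 CPM under progesterone (log2 fold change 0.28 ± 0.13 SE), with an edgeR adjusted p of 0.193. The difference of BSG was thus in the opposite direction to that of SLC16A1, and neither passed. Both were smaller without DMSO R7 and R9, at 0.16 for BSG and -0.27 for SLC16A1.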

How the data were processed

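Poly(A)-selected, stranded libraries had been prepared from total RNA, per the labels' protocols. The deposited table gives estimated counts per gene for 8 columns. The tools Salmon 1.4.0 and bcl2fastq and the genome build ARS-UCD1.2 are listed in the submitters' processing notes without their roles. What the length normalization named in the table's title did, and how gene values were made from transcripts, are not given in the sources used here. Estimated counts share reads between similar transcripts by a model, so low paralogues are less certain. Column names give the group of a library but not its sample, so libraries entered without a replicate number. No 2 libraries of a group agreed within counting error (chi-square per degree of freedom 14.8 to 139).

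Counts were rounded, filtered with edgeR's filterByExpr by group, scaled by TMM and compared in edgeR (version 4.0.16, R 4.3.3) with its robust, two-sided quasi-likelihood test on all 8 libraries, with no term beside the group. P-values were adjusted over the 13557 genes tested (Benjamini-Hochberg, threshold 0.05). The SE is the size of the log2 fold change over the square root of F, and 95% intervals take t quantiles at the degrees of freedom that edgeR gives each gene. Deviations and SDs use log2 CPM with a prior count of 2. The procedure was tested on simulated data. Alternatives were 3 other scalings, 2 other filters, DESeq2 1.42.0, limma voom (3.58.1), a threshold of 0.01, unrounded counts, estimation that was not robust, the column number as a block and each library left out. Leaving out DMSO R7 and R9, or both libraries numbered R3, was chosen after the data were seen. Members and lists were chosen with earlier results of these data known. The rule named every member, and of the companion genes those that pass and the 4 with the smallest p. BNIP3 and PCK1 were chosen after their values were seen. Levels of different genes were not compared, since no transcript lengths were used here, and no sequences or coordinates were used.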

Additional observations from a re-analysis of the deposited data

Results flagged for a closer look

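In 6 of the 50 groups of 4 values (25 members in each treatment), 1 library lay far from the other 3, judged by its gap to the nearest value as a share of the group's range. Chance gives about 1 in 20 groups. The share of all genes with such a gap is not given here, so whether the count is particular to the members cannot be told. All 6 were progesterone R3, on the high side. HK2 was at 250.4 CPM there, with the other progesterone libraries between 111 and 129 CPM. PFKL was at 733 CPM against 482 to 490 CPM in the others. PFKFB3 was at 109.8 CPM against 51.4 to 60.2 CPM. ALDOA was at 1448 CPM against 908 to 960 CPM. GPI was at 655 CPM against 435 to 457 CPM. PFKP was at 205 CPM against 180 to 183 CPM. These genes share 1 library, so the 6 are not separate events.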

How the results depend on the processing

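The count of members that fell (1, ENO3) was 2 with DESeq2 (ENO3 and SLC16A1), and 0 without a filter, at a threshold of 0.01, without DMSO R7 and R9, and without both libraries numbered R3. With 1 library left out it was 0 to 2, 2 without DMSO R1, where SLC16A1 passed too. No member was called higher in any of these. Over all genes (229 higher, 130 lower) the counts were 888 and 942 with DESeq2, 23 and 4 at 0.01, 137 and 25 without DMSO R7 and R9, 5 and 1 without both libraries numbered R3, and 36 to 818 and 6 to 964 with 1 library left out. Limma voom gave 78 lower. Companion genes higher were 1 with DESeq2 and 1 without a filter, and 0 to 1 in either direction with 1 library left out. Members lower without overlap were 2 with library size only, upper-quartile factors or without DMSO R7 and R9. ENO3 passed in 10 of 20 alternatives, with edgeR, DESeq2 or voom adjusted p from 0.000178 to 0.138. Low counts limit what can be seen for HK3 (6 to 19 per library) and PKLR (36 to 73). Members with many counts could also have a wide error, such as HK2 (SE 0.31 at 2686 to 7130 counts).

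The columns R1 and R3 exist in both groups, but the column numbers are not the labels' replicate numbers and no label pairs them. Their deviations from the group means correlated at 0.226 (R1) and 0.210 (R3). With this number as a replicate block, the group difference rests on these 4 libraries, since each other library is alone in its block. The fit leaves 1 residual degree of freedom, so its error rests mainly on what is shared across genes. Under it 4 members were called higher (HK2, PFKFB2, PFKFB3 and PFKFB4) and 2 lower (ENO3 and PGAM1). Beside them 1450 genes were called higher and 1081 lower, and 2 companion genes higher and 1 lower. The lowest adjusted p given above for these 6 members came from this fit. Signs turned under the block for HK1 (0.05), HK2 (0.49), HK3 (0.13), GAPDH (0.04), PKM (0.01), LDHA (-0.17), LDHB (0.06) and PFKFB3 (0.45).

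Of 224 member fold changes under other scalings, filters, tools, rounding or no robust estimation, 1 turned its sign (SLC16A3, 0.01 without a filter). Without DMSO R7 and R9, 7 turned: HK2 (0.22), ALDOA (-0.11), ENO1 (-0.03), ENO2 (-0.01), LDHA (-0.14), LDHB (0.09) and PFKFB3 (0.20). With 1 library left out, 11 members with changes near 0 took either sign: HK1 (-0.16 to 0.01), HK3 (-0.39 to 0.10), GPI (-0.27 to 0.05), PFKM (-0.03 to 0.07), ALDOA (-0.04 to 0.33), GAPDH (-0.19 to 0.03), PGK1 (-0.24 to 0.02), ENO1 (-0.01 to 0.23), LDHA (-0.03 to 0.30), SLC16A3 (-0.29 to 0.17) and PFKFB3 (-0.36 to 0.07). The cause of these shifts was not tested. The planned shares of each paralogue within its step were not run, since no transcript lengths were used here.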

Other observations

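PCK1 (282855, chromosome 13), the cytosolic phosphoenolpyruvate carboxykinase that opens gluconeogenesis, had a count of 0 in all 4 DMSO libraries and of 6, 3, 7 and 11 in progesterone R1, R2, R3 and R6. It was below the filter, so it was not among the 16 companion genes tested with the filter. Pooled over the group, progesterone was at 0.244 CPM. This was 9.15-fold the limit that a count of 0 allows for the DMSO group (3 counts over the 4 libraries, 0.0267 CPM), for counting error only. The counting error of the 27 progesterone counts is not part of this ratio, so it is not a lower bound. In the table, 1 gene, PCK1, had 0 counts in every DMSO library and at least 3 in every progesterone library, and 1 gene, the ribosomal protein pseudogene LOC783376, showed the reverse. Fitted without a filter over 19943 genes, PCK1 passed (edgeR adjusted p = 0.0416). Both genes were singled out after their values were seen, so the separation of the groups and this adjusted p describe the same values and are not separate support.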
